A study of Mus musculus with 6 samples.

Results

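Trdc encodes the constant region of the T cell receptor delta chain. It was examined in CD8 T cells of mouse skin together with the constant genes of the alpha chain (Trac) and of the beta chain (Trbc1 and Trbc2). These 4 genes, of 16158 with values, were chosen by measured values of these data: how often Trdc was seen in CD8 T cells by group, by the beta variable segment Trbv13-3 and by sequencing depth, and how often it was seen together with the alpha and beta constants. Those values are therefore given as a description, with no test. A CD8 T cell was a cell with at least 1 unique molecular identifier (UMI, 1 captured transcript) of Cd3e or Cd3g, at least 1 of Cd8a or Cd8b1, and no Cd4 UMI. There were 5043 such cells among 20464 retained cells, and 1312 of them had at least 1 Trdc UMI. The reference population was 1591 Trdv4 cells, which had a UMI of the delta variable segment Trdv4 and of Cd3e or Cd3g but none of Cd8a, Cd8b1 or Cd4.

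The study profiled skin cell suspensions from 6 NINJA mice aged 6 to 12 weeks by droplet sequencing of transcript 5′ ends, 2 libraries in each of 3 groups, each library labelled as a biological replicate and taken here as 1 mouse. NINJA mice carry a neoantigen gene that recombination can switch on, and the sampled skin of every mouse, controls included, had been treated with 4-OH-Tam (4-hydroxytamoxifen). The groups are labelled NO_AG (antigen off), AG (antigen on) and AG_CPI (antigen on with CPI, an abbreviation that the labels do not expand; the series title names PD-1). Per the labels, the mice were checked for infiltrating P14 CD8 T cells. P14 is a transgenic receptor against a lymphocytic choriomeningitis virus peptide, and its chains use the alpha segment family Trav14 and the beta segment Trbv13-3. A Trbv13-3 UMI does not identify a P14 cell, since other T cells can use the same segment. The labels give no sex, batch or date, so p-values between groups below measure the spread between these mice only. Those of comparisons within mice measure how steady the difference between pools was from mouse to mouse.

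An alpha-beta T cell pairs a chain ending in the Trac product with one ending in a Trbc product, and a gamma-delta T cell pairs a chain ending in the Trdc product with a gamma chain. The delta genes lie inside the alpha locus, between the alpha variable segments and Trac, so joining an alpha variable to an alpha joining segment removes Trdc from that chromosome. Mouse epidermis has its own resident gamma-delta population, the dendritic epidermal T cells, whose receptor uses Trdv4. On GRCm38 (mm10, GENCODE M21), Trdc (ENSMUSG00000104876.1) occupies chr14:54142851-54148868 and Trac occupies chr14:54220521-54224206, both on the plus strand, with 77.7 kb between their starts. Trav14-1 begins 588.8 kb before Trdc, Trdv2-2 begins 181.9 kb before it and Trdv4 begins 67.9 kb before it. Trbc1 (chr6:41538218-41539881) and Trbc2 (chr6:41546730-41548352) lie on another chromosome, as does Trbv13-3 (chr6:41130147-41130585).

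The sequences show which of these transcripts a short read can tell apart. The start of the first coding exon is given for Trdc and Trac (plus strand, 150 bases each), with capitals marking a run of 7 bases, the greatest length of run that the printed stretches share.
Trdc, chr14:54142851-54143000: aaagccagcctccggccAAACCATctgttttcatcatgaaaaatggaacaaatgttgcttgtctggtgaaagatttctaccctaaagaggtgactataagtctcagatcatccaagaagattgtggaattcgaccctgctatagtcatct
Trac, chr14:54220521-54220670: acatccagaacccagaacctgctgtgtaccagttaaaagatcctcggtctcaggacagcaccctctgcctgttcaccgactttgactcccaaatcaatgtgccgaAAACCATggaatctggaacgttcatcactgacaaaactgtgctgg
Over all their coding bases (458 in Trdc, 410 in Trac) the longest shared run was 10 bases, and Trdc shared no run above 8 bases with either beta constant. The beta constants differ from this: their first exons of 375 bases differ at 1 base, the capital below, so they are 99.7% identical.
Trbc1, chr6:41538417-41538536: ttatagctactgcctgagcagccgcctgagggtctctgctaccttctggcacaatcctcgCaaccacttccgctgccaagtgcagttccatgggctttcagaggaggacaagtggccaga
Trbc2, chr6:41546929-41547048: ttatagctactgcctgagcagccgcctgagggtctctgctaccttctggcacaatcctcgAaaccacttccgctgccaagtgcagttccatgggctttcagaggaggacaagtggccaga
Reads within that exon cannot in general be assigned to Trbc1 or Trbc2, and the values of each are uncertain for that reason. The same holds for a pair of delta variable segments met below, whose variable exons of 299 bases differ at 7 bases (97.7% identity); the differences in their last 100 bases are in capitals.
Trdv2-2, chr14:53961503-53961602: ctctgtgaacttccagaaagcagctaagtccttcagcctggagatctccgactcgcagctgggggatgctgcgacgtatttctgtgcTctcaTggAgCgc
Trdv2-1, chr14:53946561-53946660: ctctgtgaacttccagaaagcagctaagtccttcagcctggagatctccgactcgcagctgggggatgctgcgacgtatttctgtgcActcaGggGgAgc
Trdv5 lies on the minus strand and overlaps the annotated end of Trdc by 207 bases. Whether the counting used strand is not given in the sources used here, so Trdv5 counts are uncertain.

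The 6 libraries held 1736 to 4972 deposited cells of 1501 to 14995 UMIs each, and pairs of libraries shared 5 to 35 cell barcodes. Median depth over retained cells was 4138.5 and 4709.5 UMIs in the NO_AG mice, 3450.0 and 2616.0 in the AG mice and 2522.0 and 2762.5 in the AG_CPI mice (replicates 1 and 2 throughout). The library of AG replicate 2 had the most Trdc and Trac UMIs in keratinocytes, given below. In AG_CPI replicate 1, Ddx3y, a Y-linked gene, was found in 4.99% of the CD8 T cells with neither Trbv13-3 nor Trdc and Xist in 35.2%, whereas CD8 T cells of the other 5 libraries had no Ddx3y UMI. In that library Xist was found in 68.2% of the Trbv13-3 cells with Trdc and 67.7% of those without it, and Ddx3y in 0.784% and 1.22%. Among its cells without Trbv13-3, Xist was found in 62.3% of those with Trdc against the 35.2% without it, and Ddx3y in 1.37% against 4.99%. The labels do not say whether this library holds the cells of 1 animal, so n = 2 for AG_CPI counts libraries, and the part of this mixture in the results was not tested.

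Trdc was found in a few percent of CD8 T cells without antigen and in 22.1% to 34.8% with antigen. Among CD8 T cells, 6 of 138 and 15 of 443 had a Trdc UMI in the NO_AG mice, 227 of 1025 and 258 of 1000 in the AG mice, and 401 of 1151 and 405 of 1286 in the AG_CPI mice. The shares were 4.35% and 3.39%, 22.1% and 25.8%, and 34.8% and 31.5%, and no share of one group lay within the range of another. Group means were 3.87% ± 0.680, 24.0% ± 2.58 and 33.2% ± 2.37 (SD, n = 2 mice each). After each cell was thinned to 1400 of its UMIs the means were 3.42%, 14.04% and 22.1%, in the same order. The mean Trdc level was 0.470 and 0.147 UMIs per 10000 in the NO_AG mice, 1.38 and 1.67 in the AG mice and 2.88 and 2.32 in the AG_CPI mice. Wilson 95% intervals of the shares, which cover counting error only, ran from 2.01% to 9.16% and from 2.06% to 5.51% in the NO_AG mice, and the lowest bound in an antigen mouse was 19.7%.

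Within cells that carried Trbv13-3, the antigen groups had nearly the same share. Trbv13-3 was found in 2 and 13 CD8 T cells under NO_AG, 486 and 492 under AG and 664 and 844 under AG_CPI. Of these, 200, 187, 255 and 326 cells of the 4 antigen mice had Trdc, shares of 41.2%, 38.0%, 38.4% and 38.6%. The means were 39.6% ± 2.22 in AG and 38.5% ± 0.157 in AG_CPI mice (SD, n = 2), and after thinning 22.7% and 25.7%, so the order of these close values depended on depth. The Trdc level in the same cells was 2.48 and 2.49 UMIs per 10000 in the AG mice and 3.15 and 2.87 in the AG_CPI mice. In the NO_AG mice 0 of 2 and 2 of 13 Trbv13-3 cells had Trdc, too few for a share.

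CD8 T cells without Trbv13-3 differed far more from mouse to mouse. Trdc was found in 6 of 136 and 13 of 430 of them in the NO_AG mice (4.41% and 3.02%), 27 of 539 and 71 of 508 in the AG mice (5.01% and 13.98%), and 146 of 487 and 79 of 442 in the AG_CPI mice (29.98% and 17.9%). The share of AG replicate 1 lay beside the NO_AG shares, and both AG_CPI shares lay above both AG shares. The higher all-cell share of the AG_CPI mice than of the AG mice thus went with cells without a Trbv13-3 UMI and with the larger number of cells that had one. At these depths a cell without a Trbv13-3 UMI may still express the segment.

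**Figure D1:**
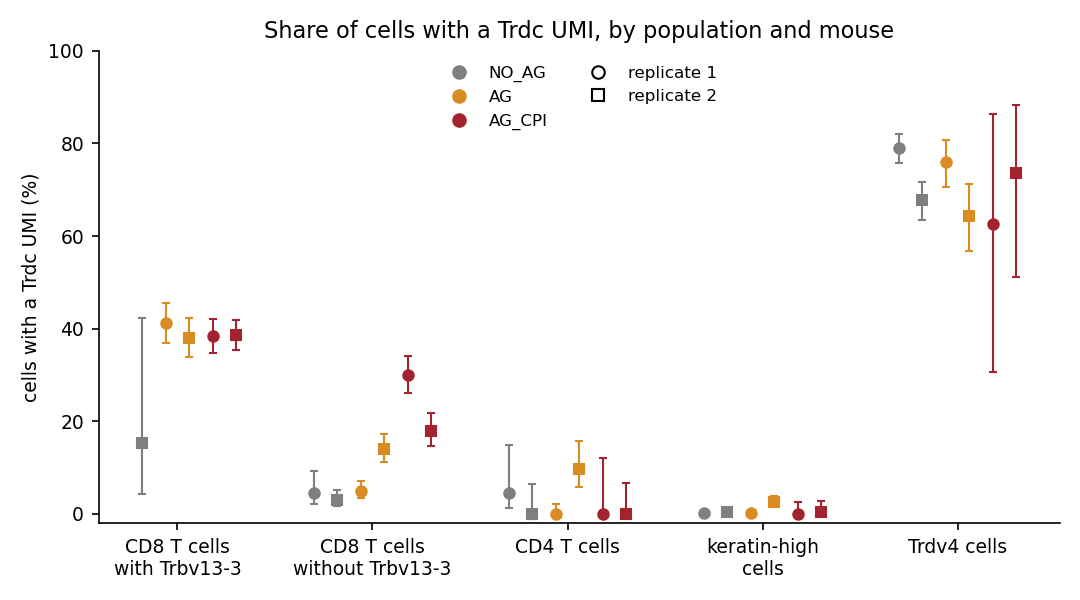
Share of cells with a Trdc UMI (vertical axis, percent) in 5 populations, 1 point per mouse with its Wilson 95% interval; colours are groups, circles replicate 1 and squares replicate 2, and the 2 Trbv13-3 cells of NO_AG replicate 1 are not drawn. The 4 antigen mice lie between 38.0% and 41.2% in cells with Trbv13-3 and spread from 5.01% to 29.98% in cells without it.

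The alpha segment of the P14 family divided the cells without Trbv13-3. Among those with a Trav14-1 UMI, Trdc was found in 13 of 50 and 20 of 95 cells of the AG mice (26.0% and 21.1%) and in 80 of 193 and 45 of 136 cells of the AG_CPI mice (41.5% and 33.1%). Among those without Trav14-1 it was found in 14 of 489 and 51 of 413 cells (2.86% and 12.3%) and in 66 of 294 and 34 of 306 cells (22.4% and 11.1%). The share with Trav14-1 was the higher of the pair in all 4 antigen mice. Among Trbv13-3 cells the shares were 42.7%, 38.3%, 40.8% and 39.9% with Trav14-1 and 29.1%, 37.1%, 30.2% and 31.2% without it, again higher with Trav14-1 in each antigen mouse. The Trbv13-3 cells with Trav14-1 were deeper, with medians of 3598, 3595.5, 2457 and 2831 UMIs against 2708, 3232, 2187 and 2490. Their Trdc level was 2.57, 2.47, 3.43 and 2.92 UMIs per 10000 against 1.76, 2.55, 2.18 and 2.61, the lower in AG replicate 2.

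Trdc was also counted in cells that should lack it. Keratin-high cells, which had at least 10 UMIs of Krt5, Krt14, Krt1 and Krt10 together and none of Ptprc, Cd3e or Cd3g, had Trdc in 0.165% and 0.332% of cells in the NO_AG mice, 0.101% and 2.64% in the AG mice, and 0 of 150 cells and 0.508% in the AG_CPI mice. A count of 0 in 150 cells allows a share of up to 2.00%. Their median depth of 2655.5 to 7064.5 UMIs was near or above that of CD8 T cells (2310 to 2963). CD4 T cells had Trdc in 2 of 45 and 0 of 56 cells in the NO_AG mice, 0 of 177 and 14 of 144 in the AG mice, and 0 of 28 and 0 of 53 in the AG_CPI mice.

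In AG replicate 2 the CD4 T cell share was 9.72% (Wilson 95% interval 5.88% to 15.7%), at a median of 2987 UMIs. In its CD8 T cells the Trdc share was 13.98% (11.2% to 17.3%) without Trbv13-3, at a median of 2512 UMIs, and 38.0% (33.8% to 42.4%) with it. The first of these intervals overlapped that of the CD4 T cells, and keratin-high cells of the library stood at 2.64%. The part of free RNA in these shares was not tested. In NO_AG replicate 1 the CD8 T cell share of 4.35% lay within the interval of its CD4 T cells (1.23% to 14.8%) and above its keratin-high cells (0.165%). Each of those 6 CD8 T cells had at least 2 Trdc UMIs (median 4, highest 12), and 4 of them had at least 3 Trdv4 UMIs. In the keratin-high cells of AG replicate 2 the levels were 0.111 Trdc and 0.196 Trac UMIs per 10000, against 1.67 and 5.34 in its CD8 T cells. Trbc2 was found in 4.59% to 14.2% of keratin-high cells, more often than Trac (0.332% to 4.74%) in every mouse.

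The deepest cells showed Trdc somewhat more often than the shallowest. Among Trbv13-3 cells of 1500 UMIs or more but under 2500, Trdc was found in 42.4% and 32.5% of cells in the AG mice and 34.1% and 34.7% in the AG_CPI mice. Among those of 6000 UMIs and over it was found in 46.2% and 45.6%, and in 50.0% and 46.7%, with 38 to 90 cells a mouse. In AG replicate 1 the share over all depths was 41.2%, below both bins, so it did not rise steadily with depth. Over the same bins Trac went from 83.8% and 76.2% to 93.8% and 91.1% in the AG mice, and from 84.2% and 83.8% to 89.5% and 86.7% in the AG_CPI mice. The Trdc level ran the other way, from 4.03, 3.01, 3.38 and 3.05 UMIs per 10000 in the shallowest bin to 1.21, 1.44, 2.13 and 1.83 in the deepest.

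**Figure D2:**
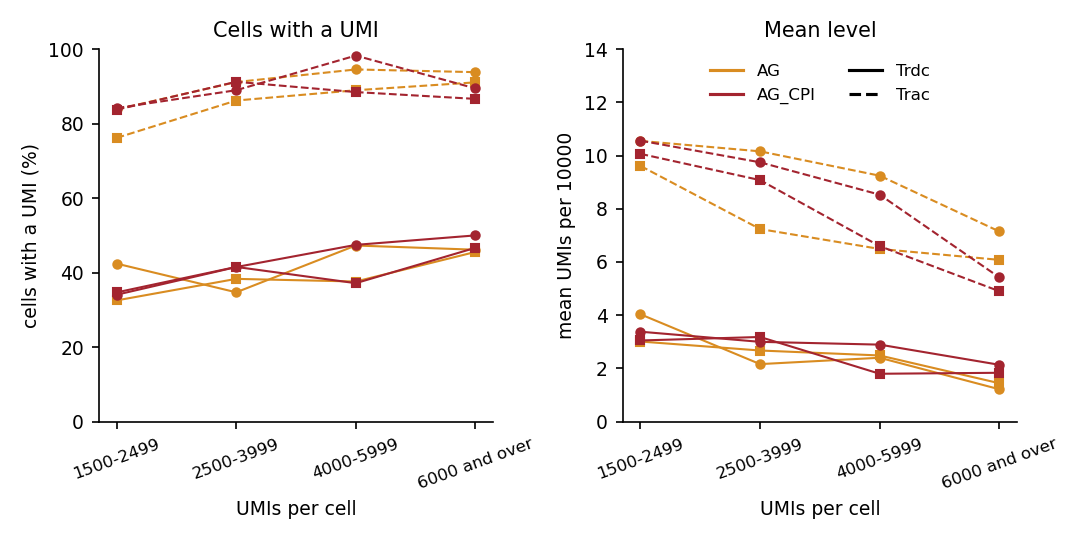
Trdc (solid) and Trac (dashed) in CD8 T cells with Trbv13-3, by UMIs per cell, 1 line per antigen mouse (circles replicate 1, squares replicate 2). The left panel shows the share of cells with a UMI and the right panel the mean UMIs per 10000; Trdc is found in 32.5% to 42.4% of the shallowest cells and 45.6% to 50.0% of the deepest, while its level per 10000 is lower in the deepest than in the shallowest bin in each mouse.

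Cells with Trdc mostly held few molecules of it. In the 4 antigen mice, 45.4%, 53.1%, 49.9% and 48.4% of the Trdc-positive CD8 T cells had exactly 1 UMI, just inside the limit that defined them, and 5.73%, 5.81%, 4.24% and 4.94% had more than 5. The highest count in a cell was 20. Of the Trdv4 cells with Trdc, 22.0% and 25.2% in the NO_AG mice and 31.0% and 38.9% in the AG mice had 1 UMI, and 17.6%, 19.6%, 11.8% and 8.33% had more than 5. Trdv4 cells were shallower than CD8 T cells in both AG mice, with medians of 2322 and 2009 UMIs against 2933 and 2963. Within positive cells the Trdc level was 6.22, 6.49, 8.25 and 7.38 UMIs per 10000 in the CD8 T cells of the antigen mice and 10.7 to 16.3 in the Trdv4 cells of the 6 mice.

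Trdc and Trac were found in the same CD8 T cells when antigen was on, and seldom in the same Trdv4 cell. Trac was present in 208 of 227, 208 of 258, 337 of 401 and 354 of 405 Trdc-positive CD8 T cells of the antigen mice, shares of 91.6%, 80.6%, 84.0% and 87.4%. In Trdc-positive Trdv4 cells the shares were 27.1% and 19.9% in the NO_AG mice and 17.7% and 13.0% in the AG mice, with 2 of 5 and 4 of 14 cells in the AG_CPI mice. The 2 and 2 Trac-positive cells among the 6 and 15 Trdc-positive CD8 T cells under NO_AG, 33.3% and 13.3%, lay in the range of the Trdv4 cells. CD8 T cells without Trdc had Trac in 47.0% and 51.4% of cells in the NO_AG mice, 70.9% and 61.6% in the AG mice and 78.4% and 76.8% in the AG_CPI mice. In every antigen mouse the Trac share was thus higher with Trdc than without it.

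Much of that gap went with Trbv13-3. Among Trbv13-3 cells Trac was found in 190 of 200, 164 of 187, 224 of 255 and 297 of 326 cells with Trdc and in 88.1%, 83.6%, 86.8% and 85.7% of those without, and the share was the higher with Trdc in each antigen mouse. The Trac level in the same cells was 10.1, 8.27, 9.91 and 9.53 UMIs per 10000 with Trdc and 9.22, 6.98, 9.80 and 8.50 without. Cells with Trdc were deeper in each antigen mouse, with medians of 3448, 3433, 2378 and 2797 UMIs against 2733.5, 2861.5, 2285 and 2680 for CD8 T cells without it.

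The beta constants followed Trac in part. Trbc2 was found in 77.1%, 71.7%, 59.4% and 63.7% of the Trdc-positive CD8 T cells of the antigen mice, and in 21.4% to 40.0% of the Trdc-positive Trdv4 cells of the 6 mice. Trbc1 was found in 50.2%, 43.8%, 32.4% and 30.9% of the former. In the AG_CPI mice these Trbc1 shares lay near those of CD8 T cells without Trdc, 31.9% and 28.4%. Both a Trac and a Trbc UMI were present in 183 of 227, 176 of 258, 252 of 401 and 269 of 405 Trdc-positive CD8 T cells, and neither in 5, 17, 18 and 19 of them. Of the Trdc-positive Trdv4 cells, 72 of 499 and 42 of 337 in the NO_AG mice and 13 of 203 and 7 of 108 in the AG mice had both.

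Counted over all UMIs of the pair of genes, Trdc made up 36.5%, 44.2%, 45.8% and 44.3% of the Trdc plus Trac UMIs in Trdc-positive CD8 T cells of the antigen mice. It made up 82.4% to 92.7% in the Trdc-positive Trdv4 cells of the 6 mice. In the NO_AG mice the CD8 T cell values were 93.8% and 93.3%, beside the Trdv4 cells. There, 4 of the 6 and 9 of the 15 cells also had a Trdv4 UMI. These NO_AG values rest on 21 cells and on the gate: with both Cd8 genes required, the mean Trdc share was 1.44% in place of 3.87%, and the mean Trac share of Trdc-positive cells was 66.7% ± 47.1 (SD, n = 2) in place of 23.3%.

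**Figure D3:**
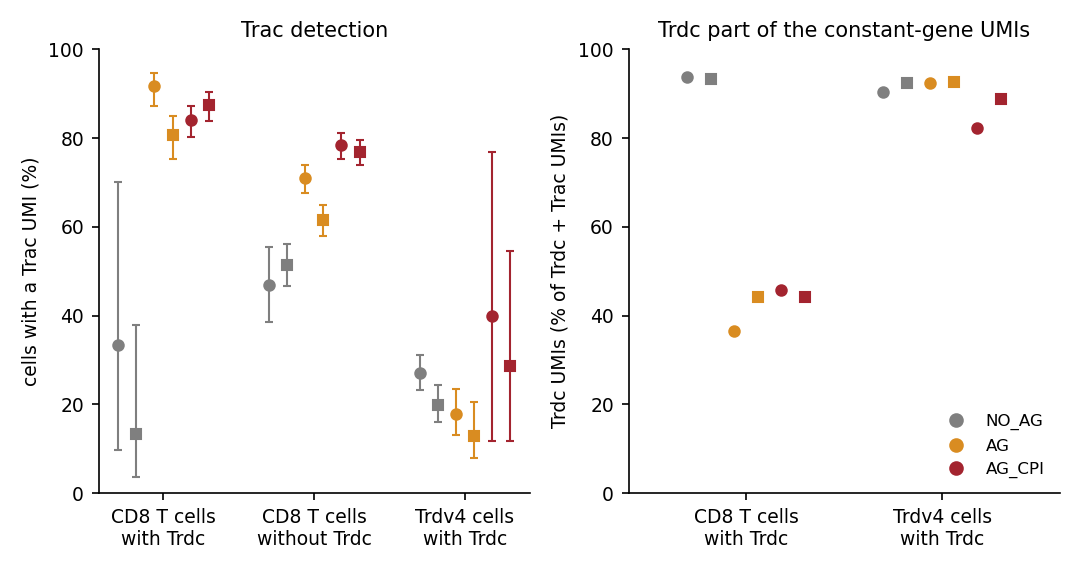
Left, share of cells with a Trac UMI (percent, Wilson 95% interval) in CD8 T cells with and without Trdc and in Trdv4 cells with Trdc; right, Trdc UMIs as a percent of Trdc plus Trac UMIs. Points are mice, colours groups, circles replicate 1 and squares replicate 2; the antigen mice stand at 80.6% to 91.6% in CD8 T cells with Trdc against 13.0% to 40.0% in Trdv4 cells, and the NO_AG mice stand with the Trdv4 cells in both panels.

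Delta variable segments, which the choice of genes had not used apart from Trdv4, were also seen in Trbv13-3 cells. Of the 968 Trbv13-3 cells with Trdc in the antigen mice, 31.7% had a UMI of at least 1 of the 5 delta segments with values. Of the 1518 without Trdc, 20.3% did. By mouse the shares were 33.0%, 31.0%, 26.3% and 35.6% with Trdc and 14.3%, 14.8%, 23.7% and 24.1% without, so the share with Trdc was the higher in all 4 mice, by least in AG_CPI replicate 1. These and the following segment shares were read at full depth, where CD8 T cells with Trdc were the deeper in each antigen mouse. The part of depth in them was not tested. Trdv2-2 was the commonest, in 15.6% of cells with Trdc and 9.88% of those without. Trdv4 followed with 8.16% and 6.39%, then Trdv5 with 7.23% and 2.37% and Trdv1 with 3.72% and 3.29%. Mice differed in direction for some of these: Trdv4 was found in 10 of 255 cells with Trdc and 31 of 409 without in AG_CPI replicate 1, and Trdv1 in 3 of 187 and 11 of 305 in AG replicate 2. Trdv2-1, nearly identical to Trdv2-2 in the sequences above, was found in 1 cell of each kind.

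Of the 307 segment-bearing Trbv13-3 cells with Trdc, 26 had UMIs of more than 1 segment, as did 26 of the 308 without Trdc. Whether the segments were spread evenly over the cells was not tested. At least 3 UMIs of Trdv2-2 were present in 47 of its 151 cells with Trdc and 22 of its 150 cells without. Read the other way, Trdc was found in 55.9%, 59.6%, 42.7% and 48.5% of the Trbv13-3 cells with Trdv2-2, and in 76.2%, 63.2%, 70.6% and 61.2% of those with Trdv5, the segment that overlaps Trdc. It was found in 72.7%, 61.5%, 24.4% and 42.5% of those with Trdv4 and in 50.0%, 21.4%, 42.3% and 46.7% of those with Trdv1, so the lowest of these lay below the share in all Trbv13-3 cells. In cells without Trbv13-3 a delta segment was found in 27.2% of 323 cells with Trdc and in 6.11% of 1653 without. The gamma chain could not be followed, since Trgv2 was the only gamma gene with values.

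**Figure D4:**
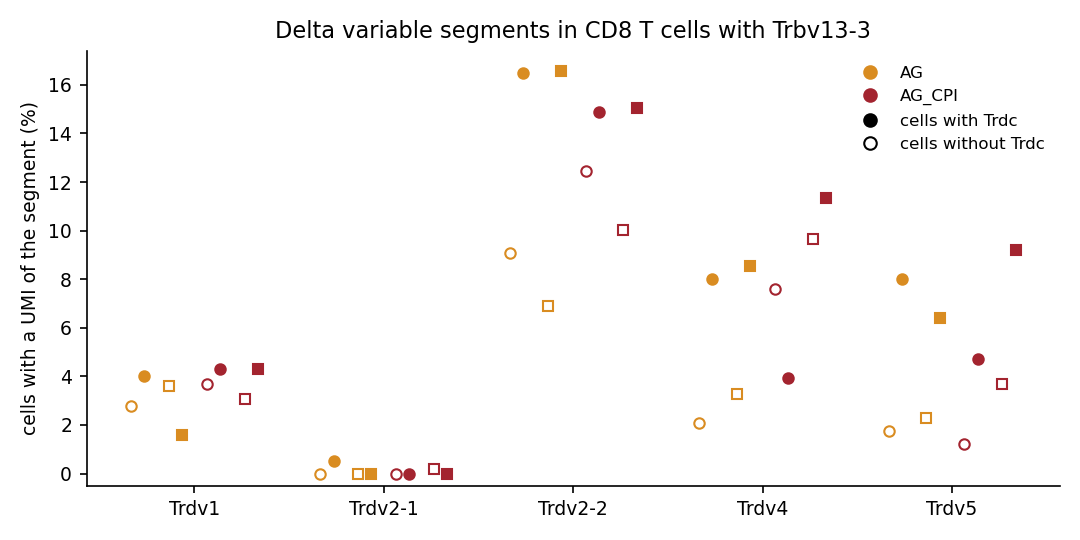
Share of CD8 T cells with Trbv13-3 that had a UMI of each delta variable segment (percent), 1 point per antigen mouse, filled for cells with Trdc and open for cells without; colours are groups, circles replicate 1 and squares replicate 2. Trdv2-2 is the commonest segment in cells with Trdc (15.6% over the 4 mice) and Trdv2-1 is at or near 0.

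Cells with Trdc were then compared with other Trbv13-3 cells over all genes. To hold depth level, each Trbv13-3 cell of the antigen mice was thinned to 1400 UMIs, and cells with and without a Trdc UMI left were pooled within each mouse (115 and 371, 101 and 391, 187 and 477, and 220 and 624 cells). The pool without Trdc still holds cells that had a Trdc UMI at full depth. Limma-trend with the mouse as a block, adjusted by the Benjamini-Hochberg method over 6683 genes, called 1 gene higher and 21 lower in cells with Trdc, 0.015% and 0.314% of the 6679 genes that the choice of genes left to test. At an unadjusted p under 0.05 there were 582. The median gene stood at -0.11 on the log2 scale under trimmed-mean (TMM) scaling and at -0.03 under the deposited scaling. In place of these 22 calls another random thinning gave 9, the deposited scaling 14, a pseudocount of 0.5 gave 36, leaving out AG replicate 2 gave 13 and leaving out the mouse block gave 0.

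The gene that was higher was Trdv2-2. Its level was 1.99 UMIs per 10000 with Trdc and 0.828 without in AG replicate 1, 1.13 and 0.384 in AG replicate 2, 1.38 and 0.779 in AG_CPI replicate 1, and 1.33 and 0.641 in AG_CPI replicate 2. Every mouse was higher with Trdc, and the groups of 4 values did not overlap. The log2 difference was 0.97 (95% interval 0.62 to 1.33, adjusted p = 0.00423, limma-trend). The difference was as large in cells without Trbv13-3 (1.35) but was not called there (adjusted p = 0.225). Trdv5 was higher in 3 of 4 mice by a log2 difference of 1.08 (adjusted p = 0.149), and passed the test at full depth (1.90, adjusted p = 9.16e-09) and without AG replicate 1 (1.59, adjusted p = 7.56e-05).

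Of the effector genes, none of 18 tested was called in either direction (median log2 difference 0.03, all genes -0.11). Gzmb, which encodes granzyme B, had 19.9, 17.0, 17.6 and 10.3 UMIs per 10000 with Trdc and 18.7, 15.1, 15.7 and 11.8 without. Prf1, which encodes perforin, had 4.53, 2.33, 1.87 and 1.72 with Trdc and 4.12, 2.38, 1.42 and 1.53 without. The smallest p values in the list belonged to the chemokine genes Ccl5 (0.15, adjusted p = 0.184) and Ccl3 (0.24, adjusted p = 0.308), higher with Trdc in 4 of 4 mice each. Ccl5 passed the test without AG_CPI replicate 1 (0.19, adjusted p = 0.00897) or AG_CPI replicate 2 (0.20, adjusted p = 0.000447). None of 19 exhaustion and inhibitory receptor genes was called either (median -0.10). Pdcd1, which encodes PD-1, had 3.73, 2.19, 2.02 and 2.21 UMIs per 10000 with Trdc and 2.95, 2.30, 1.77 and 1.97 without.

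No gene was called either among 10 naive and memory genes (median 0.00), 10 residency genes (-0.02), 15 genes of the alpha-beta receptor and CD3 complex (-0.05) or 15 genes of receptor assembly and of the alpha-delta locus (-0.13). Of the lists that mark other lymphocytes, 0 of 7 gamma-delta programme genes (-0.19), 0 of 7 dendritic epidermal T cell markers (-0.03), 0 of 7 innate lymphoid markers (-0.19) and 0 of 1 B cell marker were called. Of the gamma-delta receptor genes 1 of 4, Trdv2-2, was. Among 19 cell cycle genes (median -0.25) 1 was lower, Ube2c, a mitotic ubiquitin-conjugating enzyme (-0.71, adjusted p = 0.0384), and among 11 natural killer receptor genes 1 was lower, Tyrobp, an adaptor also abundant in myeloid cells (-1.22, adjusted p = 0.0252). Both calls were lost at full depth (adjusted p = 0.979 and 0.955) and without AG_CPI replicate 1 (0.161 and 0.197), that of Ube2c also without AG replicate 2 (0.375) and that of Tyrobp also without AG_CPI replicate 2 (0.108). A missing call does not show that the values are equal: in simulated data of this comparison 44.4% of genes changed 2-fold and 83.2% of those changed 4-fold were called. The simulation gave every gene counting error and the same small spread between pools, so these shares need not hold for the real spread.

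Most genes lower in cells with Trdc were markers of other skin cells. Of 12 keratinocyte markers 5 were lower (median -1.08), among them the basal keratin genes Krt14 (-1.85, adjusted p = 0.000323) and Krt5 (-1.35, adjusted p = 0.00122) and Lgals7, which encodes galectin-7 (-1.11, adjusted p = 1.29e-05). Of 10 myeloid markers 6 were lower (median -1.72), among them the antigen-presentation genes Cd74 (-2.16, adjusted p = 1.29e-05) and H2-Aa (-2.43), the complement gene C1qb (-2.17) and the lipoprotein gene Apoe (-1.47). The 4 mice were lower with Trdc for each of these 7 genes. No fibroblast marker had enough UMIs to test.

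The summed level of the 16 keratinocyte markers was 5.16, 9.26, 2.90 and 4.74 UMIs per 10000 in cells with Trdc and 16.5, 24.0, 4.78 and 11.1 in cells without. That of the 15 myeloid markers was 1.06, 8.42, 2.87 and 2.05 with Trdc and 4.51, 17.9, 14.4 and 12.0 without. Without thinning, Cd74 (-0.24, adjusted p = 0.812), H2-Aa (-0.20), C1qb (-0.32) and Apoe (-0.23) were no longer called, whereas Lgals7 (-0.68, adjusted p = 0.000215) and Krt14 (-1.40, adjusted p = 0.000269) were. Their part in the other results of this contrast was not tested.

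**Figure D5:**
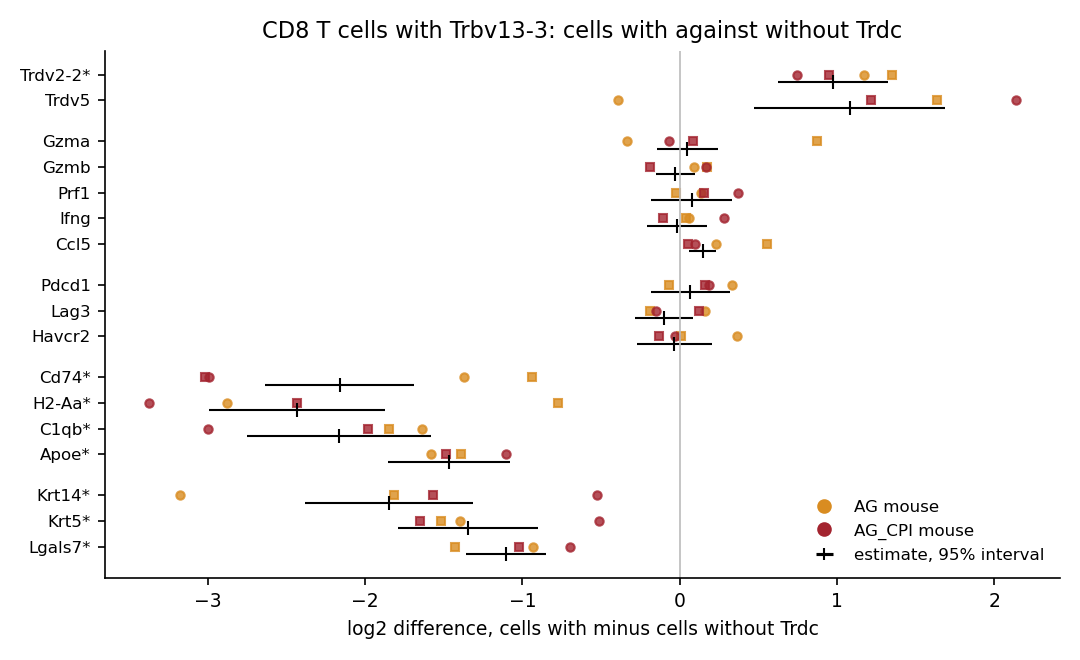
Log2 difference between CD8 T cells with and without Trdc (Trbv13-3 cells thinned to 1400 UMIs) for named genes: coloured points are the 4 antigen mice on the deposited scale (circles replicate 1, squares replicate 2), black bars the limma-trend estimate after TMM scaling with its 95% interval, and an asterisk marks an adjusted p under 0.05. Trdv2-2 lies to the right, at 0.97, the effector and inhibitory receptor genes lie around 0, and the myeloid and keratinocyte markers lie to the left.

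Trdc-positive CD8 T cells were next set against Trdv4 cells, which were not required to have a Trdc UMI. Cells were thinned as before, and 4 mice had at least 10 cells of each kind (15 and 498 in NO_AG replicate 2, 227 and 267 in AG replicate 1, 258 and 168 in AG replicate 2, and 405 and 19 in AG_CPI replicate 2). Of these Trdv4 cells 337, 203, 108 and 14 had a Trdc UMI at full depth. Limma-trend with the mouse as a block called 9 of 6263 genes higher (0.144%) and 17 lower (0.271%) in the CD8 T cells, with 556 at an unadjusted p under 0.05. These 26 calls became 233 at full depth and 196 under the deposited scaling (69 higher, 127 lower). The chemokine gene Ccl5 had 20.95, 187, 155 and 97.1 UMIs per 10000 in the CD8 T cells and 0.975, 0.883, 3.87 and 9.40 in the Trdv4 cells (log2 difference 5.30, adjusted p = 0.0051). The granzyme gene Gzma had 0.476, 33.6, 26.8 and 104.5 against 0.115, 0.0535, 0.255 and 0 (adjusted p = 0.0288), and Havcr2, which encodes the inhibitory receptor TIM-3, had 1.91, 2.55, 2.63 and 2.61 against 0.172, 0.0535, 1.02 and 0 (adjusted p = 0.029). The counts depended on single mice: they were 236 without NO_AG replicate 2, 1 without AG replicate 1, 5 without AG replicate 2 and 0 without AG_CPI replicate 2.

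Of the genes that were lower, Fcer1g, an adaptor of natural killer and epidermal gamma-delta cells, had 24.3, 2.17, 2.63 and 1.13 UMIs per 10000 in the Trdc-positive CD8 T cells and 30.02, 41.6, 30.02 and 36.5 in the Trdv4 cells (-3.06, adjusted p = 0.0287). The value of NO_AG replicate 2 lay beside the Trdv4 cells, and those of the antigen mice lay more than 10-fold below them. Tcf7, a transcription factor of naive and memory T cells (-2.53, adjusted p = 0.0287), Cd7 (-2.35, adjusted p = 0.0375) and the tetraspanin gene Cd9 (-2.17, adjusted p = 0.0147) were lower as well. Of 7 epidermal T cell markers tested 2 were lower, Fcer1g and Cd7. The other 5 were not called and did not share a direction (list median -0.28, all genes 0.02). Of 8 natural killer receptor genes 1 was lower, again Fcer1g (median 0.30). Of 14 effector genes 2 were higher (median 0.47), and none of 8 gamma-delta programme genes (-0.63) or 7 innate lymphoid markers (-0.14) was called. Nor was any of 7 myeloid markers (median -0.82, 7 negative) or 13 keratinocyte markers (median -0.69, 10 negative and 3 positive). The part of these markers of other cells in the comparison was not tested.

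When CD8 T cells with a Trdv4 UMI were left out, 3 mice remained, all with antigen, and 141 of 5188 genes were higher and 49 lower. The chemokine genes Ccl4 (adjusted p = 9.21e-06) and Ccl3 (adjusted p = 5.9e-05) and Gzma (adjusted p = 2.35e-05) were then among the higher genes. Their fold changes depend on the pseudocount of 0.1, since the 19 Trdv4 cells of AG_CPI replicate 2 held no UMI of any of them. Before that exclusion Ccl4 had 66.4, 44.2 and 23.3 UMIs per 10000 in the Trdc-positive CD8 T cells of these mice and 0.107, 0.765 and 0 in their Trdv4 cells. Of 12 exhaustion and inhibitory receptor genes 7 were higher, with Pdcd1 at 3.43 (adjusted p = 0.00145) and Lag3 at 2.996 (adjusted p = 0.000675), and of 19 cell cycle genes 10 were. Fcer1g (-4.59, adjusted p = 9.21e-06), Cd7 (-2.95, adjusted p = 0.00383) and Areg, an epidermal growth factor family gene (-2.95, adjusted p = 0.00463), were lower.

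The alpha and beta constants also differed by group in CD8 T cells as a whole. The groups of 2 mice were compared in 1 limma-trend fit over 7464 genes; the comparisons share mice, and an exact permutation test of 2 against 2 mice cannot go below p = 0.333. Between AG and NO_AG mice, 1.17% of genes were called higher and 0.188% lower, and between AG_CPI and NO_AG mice 2.53% and 0.817%. Between AG_CPI and AG mice 0.0268% were called higher and 0% lower, and these 2 calls became 105 and 13 without AG replicates 1 and 2, and 0 and 6 without AG_CPI replicates 1 and 2. The 101 calls between AG and NO_AG mice became 40 without NO_AG replicate 1, 63 without NO_AG replicate 2, 63 and 57 without AG_CPI replicates 1 and 2, and 230 without AG replicate 1. The 250 calls between AG_CPI and NO_AG mice became 39 and 96 without AG_CPI replicates 1 and 2, 93 without NO_AG replicate 1, and 445 and 493 without AG replicates 1 and 2. Their split of 189 higher and 61 lower was 128 and 84 under the deposited scaling. Trac had 2.68 and 2.82 UMIs per 10000 in the NO_AG mice, 6.73 and 5.34 in the AG mice and 8.46 and 7.48 in the AG_CPI mice, with no overlap between groups. It was higher by 1.21 on the log2 scale in AG (95% interval 0.81 to 1.61, adjusted p = 0.0112) and by 1.64 in AG_CPI mice (1.24 to 2.04, adjusted p = 0.00126) than in NO_AG mice. Between AG_CPI and AG mice the difference was 0.43 (0.03 to 0.83, adjusted p = 0.764).

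Trbc2 had 1.71 and 1.77 UMIs per 10000, then 3.67 and 3.33, then 3.86 and 3.25, so that the antigen groups overlapped. It was higher than in NO_AG mice by 1.08 in AG (adjusted p = 0.0156) and by 1.12 in AG_CPI mice (adjusted p = 0.00759), and differed by 0.04 between these groups (95% interval -0.34 to 0.43, adjusted p = 0.996). Trbc1 had 0.616 and 1.22, then 1.97 and 1.59, then 1.97 and 1.46, and its differences from NO_AG mice, 1.05 and 1.02, were not called (adjusted p = 0.142 and 0.0917). Trdc itself stood 2.19 and 2.95 above NO_AG mice and 0.76 higher in AG_CPI than in AG mice on the same scale, with no test.

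In cells without Trbv13-3 the Trac difference between AG and NO_AG mice was 0.53 (adjusted p = 0.788), and that between AG_CPI and NO_AG mice was 1.13 (adjusted p = 0.0458). The Trbc2 differences there were 0.47 (adjusted p = 0.788) and 0.77 (adjusted p = 0.132). The AG call of Trac was lost without NO_AG replicate 1 (adjusted p = 0.134) or NO_AG replicate 2 (adjusted p = 0.0678), at differences of 1.21 and 1.22. The AG call of Trbc2 was lost without the same mice (adjusted p = 0.156 and 0.0759), and its AG_CPI call without AG_CPI replicate 1 (0.158), NO_AG replicate 1 (0.0812) or NO_AG replicate 2 (0.0509). Trbc1 was called in AG_CPI mice without AG replicate 1 (0.0367), AG replicate 2 (0.028) or NO_AG replicate 2 (0.0435). Trac and Trbc2 were the 2 of 23 genes of the alpha-beta receptor and CD3 complex called higher in AG mice (median 0.06, all genes 0.02). Myeloid markers stood higher in the same cells: 0 of 10 were called in AG mice (median 1.19) and 5 of 10 in AG_CPI mice (median 1.26). Of 15 keratinocyte markers none was called, with medians of 0.55 for AG and -0.78 for AG_CPI against NO_AG mice and -1.42 for AG_CPI against AG mice. The part of either list in these results was not tested. Over all CD8 T cells Trdv5 had 0 and 0.0238 UMIs per 10000 in the NO_AG mice, 0.245 and 0.137 in the AG mice and 0.313 and 0.374 in the AG_CPI mice. Trdv2-2 had 0.231 and 0.0164, then 0.542 and 0.297, then 0.794 and 0.623. Both segments entered the fit through the antigen mice alone, so these levels are given with no test. Trdv4 had 1.70 and 0.969, then 0.328 and 0.526, then 0.242 and 0.469 UMIs per 10000. Its log2 difference from NO_AG mice was -1.32 in AG (limma-trend, adjusted p = 0.0931) and -1.53 in AG_CPI mice (adjusted p = 0.0315).

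Across 32 pools of population and mouse, the genes whose level was most like that of Trdc were Nrgn (Pearson r = 0.920), which encodes neurogranin, the perforin gene Prf1 (0.912), Rcn3 (0.892), Tm6sf1 (0.891) and Dapk2 (0.881), out of 10513 genes. The pools of a mouse share a library, and pools differ in depth and in the cell types they hold, so these values are a description. Within Trbv13-3 cells the Prf1 difference between cells with and without Trdc was 0.08 on the log2 scale (95% interval -0.18 to 0.33, limma-trend adjusted p = 0.892).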

How the data were processed

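Skin cell suspensions of 6 mice, 2 in each of 3 groups taken from the labels, were profiled with a Chromium 5′ kit, per the labels' protocols. Cell Ranger 3.1 and the genome mm10 are named in the submitters' processing notes. Each deposited value is the log10 of a gene's UMIs per 10000 UMIs of its cell, after adding 1, as read from the values: under log10, 100% of them came out as whole UMIs within 0.02, so UMIs per cell were recovered. A count test was planned only for deposited raw counts. The authors deposited log10 values, so no count test was run, although whole UMIs could be recovered, and limma-trend 3.58.1 (R 4.3.3) on log2(mean UMIs per 10000 + 0.1) of pooled cells, TMM scaled, was used. Python 3.11.15, numpy 2.4.6, scipy 1.17.1, pandas 2.3.3 and scanpy 1.11.5 did the rest.

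Cells under 200 genes or over 20% mitochondrial UMIs were dropped (51 of 21178), and the highest-scoring 0.8% of cells per 1000 cells of each library by Scrublet were removed as doublets (663). Trdc was read in 5043 CD8 T cells, at medians of 2310 to 2963 UMIs a mouse. Genes entered the within-mouse comparisons with at least 5 thinned UMIs in at least 4 pools of at least 10 cells, and the group comparisons where 2 mice or more had 10 UMIs or more and a mean level of 0.1 or more. P-values were adjusted by the Benjamini-Hochberg method over all genes fitted, with a threshold of 0.05. Genes whose values in a comparison had served to choose the 4 genes were left out of its counts of calls: Trdc, Trac, Trbc1, Trbc2 and Trdv4 in the comparisons of cells with Trdc, and Trdc alone between groups.

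The 4 genes and the 16 gene lists (277 genes, 241 with values) were chosen with earlier results of these data known. Named genes were these 4, up to 10 higher and 10 lower called genes of smallest p with 1 sign in every mouse (no mitochondrial, ribosomal, sex-linked or receptor variable genes), up to 3 called or smallest-p genes of each list, and the 5 genes most like Trdc; Gzmb, Prf1, Pdcd1, the delta segments and the genes set against Trdv4 cells were named beside them after their values were seen. A planned background of Gata3 and Il1rl1 cells held 0 to 2 cells a mouse and was not used. In simulated data with the real genes, limma-trend called 55.6% of genes changed 2-fold and 93.6% of those changed 4-fold between AG and NO_AG mice (7464 genes, 4.3% false among calls), and 3.9% of the calls were false for cells with against without Trdc. Simulated counts held counting error and the same small spread for every gene, so these shares need not hold for the measured values. Alternatives covered thinning, doublets, pseudocount, low-value filter, scaling, blocks, gates and each mouse left out.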

Additional observations from a re-analysis of the deposited data

Results flagged for a closer look

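In the comparison of Trbv13-3 cells with and without Trdc, 2 genes differed between the antigen groups by a test of the difference itself (limma-trend, 1 gene higher and 1 lower in AG_CPI than in AG mice, 0.015% of 6679 genes each, with 315 at an unadjusted p under 0.05). The first was the delta variable segment Trdv1. Thinned cells with Trdc held 0 Trdv1 UMIs in both AG mice and 19 and 25 in the AG_CPI mice, and thinned cells without Trdc held 20 and 24 in the AG mice and 16 and 28 in the AG_CPI mice. The difference between groups was 3.54 on the log2 scale with a pseudocount of 0.1 (adjusted p = 0.00208), a value that depends on that pseudocount since both AG pools with Trdc were at 0. It was 1.83 at full depth (adjusted p = 0.542), 1.82 with another thinning (adjusted p = 0.418), and its call was lost without AG_CPI replicate 1 (adjusted p = 0.0566). The second was Cd74, a myeloid marker, which was lower with Trdc in all 4 mice and by more in the AG_CPI mice. Its levels with and without Trdc were 0.497 and 1.44 UMIs per 10000 and 3.54 and 6.87 in the AG mice, and 0.649 and 5.87 and 0.519 and 4.91 in the AG_CPI mice, a difference between groups of -1.81 (adjusted p = 0.00208). With another thinning the Cd74 difference was -2.78 (limma-trend, adjusted p = 4.68e-12). At full depth it was -0.20 (adjusted p = 0.951), at 2500 UMIs a cell -0.08 (adjusted p = 0.994), and with doublets kept the direction turned (0.16, adjusted p = 0.967). Its call was also lost without cells holding a delta segment (-1.57, adjusted p = 0.148).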

How the results depend on the processing

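The Trdc share kept its order NO_AG, AG, AG_CPI in CD8 T cells under thinning to 1400 UMIs (3.42%, 14.04% and 22.1%), at least 2 Trdc UMIs (2.85%, 12.1% and 16.9%), and both Cd8 genes required (1.44%, 26.8% and 33.6%); with doublets kept NO_AG gave 4.58%. In Trbv13-3 cells thinning gave 22.7% and 25.7% and at least 2 UMIs 21.1% and 19.99% in AG and AG_CPI mice, and both Cd8 genes gave 38.9% in AG_CPI mice. In cells without Trbv13-3, both Cd8 genes gave 1.32% in NO_AG mice and at least 2 UMIs 11.5% in AG_CPI mice. The Trac share of Trdc-positive cells was 64.8% (AG) and 66.9% (AG_CPI) after thinning, and 66.7% in NO_AG mice with both Cd8 genes. The 22 calls between cells with and without Trdc became 89 in all CD8 T cells, 34 without Trbv13-3, 9 with another thinning, 12 without cells holding a delta segment (no gamma constant had values), 14 under the deposited scaling, 36 with a pseudocount of 0.5, 0 without the mouse block, and 13 to 30 with 1 mouse left out. Trdv2-2 kept its call except without Trbv13-3 (adjusted p = 0.225) and without the mouse block (adjusted p = 0.99), and could not be tested without cells holding a delta segment. Directions reversed for Trdv1 in all CD8 T cells (1.02), Gzmc at full depth (0.95) and Tyrobp without Trbv13-3 (0.42). The 2 group differences of that contrast became 26 (all CD8 T cells), 5 (full depth), 9 (another thinning), 8 (2500 UMIs), 0 (without Trbv13-3), 5 (deposited scaling), 0 (no filter) and 9 (pseudocount 0.5), and 2 to 20 with 1 mouse left out; Trdv1 reversed without Trbv13-3 (-3.05) and Cd74 with doublets kept (0.16). The 26 calls against Trdv4 cells became 233 at full depth, 190 when CD8 T cells with a Trdv4 UMI were left out (which also left out NO_AG replicate 2, whose omission alone gave 236), 196 under the deposited scaling (69 higher, 127 lower), 133 with no filter, 118 with a pseudocount of 0.5, and 0 to 236 with 1 mouse left out. All alternatives for the last pair of comparisons and for the Trac share were chosen after seeing the data. Between groups, calls without Trbv13-3 were 17 (AG against NO_AG, 101 in the main comparison), 1 (AG_CPI against AG, 2) and 109 (AG_CPI against NO_AG, 250), with no filter 7, 0 and 13, and after thinning 1 and 152 for the latter pair. With 1 mouse left out they were 40 to 230, 0 to 105 and 39 to 493; a group left with 1 mouse was taken to vary like the others. The labels do not say whether replicate numbers pair the mice. The correlations of replicate 1 deviations, 0.0773, 0.105 and 0.0512, cannot decide it. A replicate block gave 172, 58 and 379 calls and Trbc1 a call between AG_CPI and NO_AG mice (limma-trend, adjusted p = 0.0448). With no filter Trac and Trbc2 lost their calls (adjusted p = 0.0607 to 0.14). The cause of these changes was not tested. Depth limits detection: 45.4% to 53.1% of Trdc-positive CD8 T cells in the antigen mice had 1 Trdc UMI.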
